A study of Mus musculus with 15 samples.

Results

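The Zfp genes are the mouse genes named zinc finger protein plus a number. They were taken here as protein-coding genes whose symbol is Zfp followed by digits only and which had at least 10 raw counts in each of the 15 libraries. Of 365 such protein-coding genes in the count table, 293 met the minimum, and these 293 are among 17834 genes tested. Of the 72 genes below the minimum, 38 were still tested, 34 were not, and 3 had 0 counts everywhere. The members were thus chosen by their lowest count in any library, a choice that removed genes that fell to a few counts in 1 group. Just inside the minimum were Zfp750 with a lowest count of 10 in Rux A16, Zfp593 with 10 in AG221 A8 and Zfp827 with 11 in vehicle A4. Just outside were Zfp428 with 9 in AG221 A8, Zfp462 with 9 in combo B24 and Zfp879 with 6 in AG221 A9.

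A C2H2 zinc finger is a short fold, held by a zinc ion between paired cysteines and histidines, that usually reads a few bases of DNA; long arrays of them read longer sites. Many of these proteins also carry a KRAB box, which recruits Trim28 (KAP1) and through it the H3K9 methyltransferase Setdb1, or a SCAN box, which pairs proteins with each other. KRAB genes are best known for silencing retroelements and guarding imprints, and they lie in large clusters of related copies, whereas several genes that share the name bind RNA or act in chromatin complexes.

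The 5 groups held 3 libraries each. The WT libraries came from wild-type LSK cells (lineage-negative, Sca-1-positive, Kit-positive cells, the marrow fraction that holds stem and early progenitor cells). The other groups came from C57BL/6 cells with both conditional alleles, Jak2 V617F and Idh2 R140Q, induced with polyI:polyC. These mutant marrow cells were transplanted in competition with wild-type marrow into lethally irradiated wild-type hosts that carried the other CD45 allele, and donor LSK cells were sorted from bone marrow. The hosts received vehicle, the mutant-IDH2 inhibitor AG221 (40 mg/kg), the JAK1/JAK2 inhibitor ruxolitinib (Rux, 60 mg/kg) or both (combo) by gavage for 21 to 28 days, with the last dose about 1.5 hours before they were killed. Mice of both sexes were used, neither source says whether 1 library is 1 mouse, and none says whether the WT cells came from transplanted hosts.

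Library totals ran from 18836625 to 32174287 counts. The genes of the sort markers were detected in every library. Kit was at 1251 to 1552 CPM (counts scaled to library size) in WT and 740 to 1402 CPM in the mutant groups, and Ly6a, which encodes Sca-1, at 59.9 to 80.98 CPM and 13.1 to 166 CPM. Xist was at 455 to 511 CPM in the WT libraries and at 0.365 to 19.5 CPM in the others, so sex and genotype cannot be told apart. The library names begin with A in vehicle, AG221 and Rux and with B in combo and WT. What the letter means is not given, and a comparison of combo or WT with the other 3 groups cannot be told apart from it. AG221 A8 and AG221 A10 stood apart: among tested genes other than the members, the median of the 25% richest in GC minus that of the 25% poorest, each relative to the WT mean, was -0.61 and -0.36 on the log2 scale there. In the other 13 libraries it lay between -0.14 (Rux A16) and 0.25 (combo B25). Idh2 itself was at 55.1 and 65.9 CPM in these 2 libraries, at 124 in Rux A16, at 212 in vehicle A1 and at 335 to 568 in the other libraries. For the comparisons below that use AG221, the count of calls and the median over the members are also given without A8 and A10. Other values that rest on these 2 libraries are mostly given with them only.

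To show the upstream sequence of genes described below, the 250 bases before the RefSeq start (GRCm38.p6, 5′ to 3′ on the gene's strand) are printed for the 3 genes whose 15 values are plotted below beside Zfp36. The windows are chr4:119174196-119174445 (Zfp691, minus strand), chr4:34882949-34883198 (Zfp292, minus strand, of which the last 12 bases are in the first GENCODE exon) and chr8:69774912-69775161 (Zfp866, minus strand, within the longer GENCODE gene). Capitals mark CCAAT, the Sp motif GGGCGG and the E box CACGTG on either strand.
Zfp691: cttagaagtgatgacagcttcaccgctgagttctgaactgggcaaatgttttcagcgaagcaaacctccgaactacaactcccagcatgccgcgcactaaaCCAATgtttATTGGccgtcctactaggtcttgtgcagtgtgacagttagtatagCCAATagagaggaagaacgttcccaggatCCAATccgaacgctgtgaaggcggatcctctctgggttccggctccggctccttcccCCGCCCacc
Zfp292: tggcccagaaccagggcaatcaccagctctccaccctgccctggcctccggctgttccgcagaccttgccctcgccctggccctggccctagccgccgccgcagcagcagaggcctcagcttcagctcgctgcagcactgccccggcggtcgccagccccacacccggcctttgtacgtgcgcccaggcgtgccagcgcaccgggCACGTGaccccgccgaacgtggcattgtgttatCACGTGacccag
Zfp866: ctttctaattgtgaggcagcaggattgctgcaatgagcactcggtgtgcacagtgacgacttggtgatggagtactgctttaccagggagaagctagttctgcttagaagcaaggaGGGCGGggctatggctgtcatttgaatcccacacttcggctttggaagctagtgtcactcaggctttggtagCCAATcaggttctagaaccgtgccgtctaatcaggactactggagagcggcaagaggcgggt
For Zfp36 only the 30 bases around its Ets motif CCGGAAG, in capitals, are shown (chr7:28379303-28379332, minus strand), since a longer annotated transcript covers this stretch as exon.
Zfp36: cgggggcgcgtcCCGGAAGctctagtggcc

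Zfp691 (the more upstream of its RefSeq starts) thus held 4 CCAAT motifs and 1 Sp motif, while the 250 bases before its other start (chr4:119173857-119174106) held none of the 3 motifs, Zfp292 held 2 E boxes, and Zfp866 held 1 of each of CCAAT and Sp. Over all Zfp genes, 243 of 293 matched a RefSeq start by symbol and gave 298 windows of 300 bases (250 before and 50 after the start), against 32851 windows of all genes. The Ets motif was in 22.1% of the Zfp windows and 8.86% of all windows, CCAAT in 48.3% and 37.4%, and GGGCGG in 46.3% and 35.7%, counting both strands. TATAAA was in 6.04% against 13.6% and the AP-1 motif TGACTCA in 3.69% against 5.2%. The CRE motif TGACGTCA was in 4.03% against 1.79%, the STAT motif TTCCNGGAA in 4.36% against 1.15%, CACGTG in 6.71% against 7.15% and the Egr motif GCGTGGGCG in 0.336% against 0.612%. The median window of the Zfp genes held 15 CpG and that of all genes 7. The long TTCCNGGAA and the other motifs can overlap each other, a match describes letters only, and nothing was tested on them.

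By the translated GENCODE coding sequence, 170 of the 293 genes held a KRAB box (3 of them with a SCAN box as well), 10 held a SCAN box alone and 113 neither. The KRAB genes had a median of 12 fingers and a median GC content of 41.3% over their exons, and the 123 without KRAB had 7 fingers and 48.8%; the median of all genes tested was 49.0% GC. Zfp142 had the most fingers with 37, then Zfp619 with 33 and Zfp236 with 31. In 22 clusters of at least 4 Zfp genes with gaps of at most 500 kb lay 159 members, of which 81.8% had a KRAB box, against 29.9% of the 134 outside. Chromosome 7 held 78 of the members, chromosome 17 held 38, chromosome 13 held 28 and chromosome 8 held 19. For 40 members, over 20% of the 50-base words in the exons also occur in another gene, so reads can be shared between copies and their counts are uncertain.

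The Zfp transcripts were mostly low. Per exon length, their median level was 4.29 RPKM (CPM per kilobase of exon) against 7.06 for all genes with the same minimum. The highest median RPKM over the 15 libraries was that of Zfp36 (359 RPKM), followed by Zfp422 (87.6 RPKM), Zfp706 (68.9 RPKM), Zfp207 (64.5 RPKM), a mitotic spindle and splicing factor, and Zfp35 (37.7 RPKM). The lowest were Zfp827 (0.169 RPKM), Zfp316 (0.179 RPKM) and Zfp90 (0.292 RPKM). Together the members took 0.917 to 1.25% of all counts in a library.

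The spread over libraries was narrower than among other genes with the same minimum. The highest library CPM was a median 2.17 times the lowest, against 2.8 times over genes with the same minimum, and 114 members (38.9%) stayed within 2-fold across all 15 libraries, against 22.3% of those genes. Zfp422 was the steadiest, at 290 (AG221 A9) to 362 CPM (combo B26), a ratio of 1.25. At the other end, chosen after their values were seen, were Zfp358 with a ratio of 44.9 and Zfp444 with 40.6, both lowest in an AG221 library that stood apart, Zfp787 with 29.8, lowest in AG221 A8, and Zfp36 with 29.2. The median SD between libraries of a group, on the log2 CPM scale, was 0.126 in WT, 0.212 in vehicle, 0.336 in AG221, 0.238 in Rux and 0.149 in combo, so AG221 was the noisiest group.

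The first comparison, vehicle against WT, set double-mutant cells of hosts given no inhibitor against wild-type cells. Sex, the letter of the library name and a possible difference in transplantation cannot be told apart from genotype in it. Zfp36 rose 10.9-fold, a small number of other Zfp genes rose by less, and a larger number fell. Of the 293 members 54 passed edgeR's quasi-likelihood test with a Benjamini-Hochberg adjusted p under 0.05, 14 higher and 40 lower in vehicle. Over all genes tested 15.4% were called higher and 17.9% lower. Among genes with the same minimum of 10 counts these shares were 20.4% and 11.5%, against 4.78% and 13.7% of the members, and their median log2 fold change was 0.11 against -0.15 for the members. The groups did not overlap for 49.8% of the members and 56.9% of all genes. Without the minimum, 68 of 331 Zfp genes were called, 14 higher and 54 lower. Of the 34 Zbtb genes, the zinc finger genes with a BTB domain, 2 were called higher and 7 lower, and of the 20 Zscan and Zkscan genes 0 and 4; no difference between the families was tested.

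Zfp36 (ENSMUSG00000044786, chromosome 7, 28376784 to 28380253) encodes tristetraprolin, which binds AU-rich elements and hastens the decay of cytokine and immediate early mRNAs. It is a Zfp gene by name with CCCH rather than C2H2 fingers. It stood at 229, 194 and 160.5 CPM in the WT libraries and at 2364, 2808 and 1185 CPM in the vehicle libraries. The lowest vehicle library lay far above the highest WT library. The log2 fold change was 3.44 (SE 0.33), an adjusted p of 4.42e-05 by edgeR's quasi-likelihood test, and it stayed called when any 1 library was left out. The summed level of 8 immediate early genes moved with it, at 531 to 776 CPM in WT and 4440 to 10200 CPM in vehicle; its part in the rise was not tested. Marker sums of other cell types also differed between WT and vehicle: plasma cell 590 to 1270 against 63.0 to 156 CPM, mast cell and basophil 48.4 to 92.8 against 347 to 788 CPM, megakaryocyte 194 to 253 against 727 to 781 CPM, erythroid 60.9 to 91.9 against 156 to 299 CPM and B-lineage 22.6 to 40.5 against 1.42 to 14 CPM. In each of these lists every marker was detected in both groups. The T and NK sum was 9.52 to 11.2 against 0.987 to 6.29 CPM, with 5 of 6 markers detected in vehicle, and the neutrophil and monocyte sum 1040 to 1190 against 1510 to 3620 CPM, with 6 of 7 detected in WT. Of the LSK markers, Kit, Ly6a, Cd34, Flt3 and Mecom summed to 3090 to 3290 CPM in WT and 1690 to 2530 CPM in vehicle, all 5 detected in both. Flt3, known from multipotent and lymphoid progenitors, was the one called, at 518 to 600 against 87.8 to 191 CPM (log2 fold change -1.99, SE 0.61, adjusted p 0.0252, edgeR). The part of these markers in the Zfp results was not tested.

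Zfp691 stood at 2.87, 4.04 and 3.25 CPM in WT and at 9.47, 9.64 and 7.38 CPM in vehicle, so that the groups were well apart. It was 2.60-fold higher, with a log2 fold change of 1.38 (SE 0.19) and an adjusted p of 0.000726 by edgeR. Zfp330, a nucleolar protein, rose from 83.2 ± 4.11 to 137 ± 0.881 CPM (SD, n = 3 libraries each), a log2 fold change of 0.72. Zfp24, a SCAN-box factor, rose from 138 ± 6 to 183 ± 2.68 CPM and Zfp35 from 88.5 ± 6.33 to 140 ± 14.6 CPM. These are the 5 members with the smallest adjusted p among those that rose. The calls of Zfp24 (adjusted p 0.0106) and Zfp35 (0.0158) were lost without WT B30, and that of Zfp35 also without vehicle A4.

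Among the members that fell, Zfp292, a large multi-finger transcription factor, stood at 110, 138 and 87.3 CPM in WT and at 44.7, 51.4 and 53.5 CPM in vehicle. Every vehicle library was below every WT library, and the log2 fold change was -1.16 (SE 0.21, adjusted p 0.00338). Zfp866, a KRAB gene, stood at 56.5, 59.2 and 59.1 CPM in WT and at 34.7, 33.4 and 29.3 CPM in vehicle, again without overlap, for a log2 fold change of -0.84. Zfp831 fell from 20.2 ± 3.7 to 8.002 ± 1.67 CPM, Zfp664 from 80.4 ± 17.3 to 27.2 ± 8.9 CPM and Zfp985 from 4.36 ± 1.39 to 1.06 ± 0.332 CPM. Zfp985 lies in a chromosome 4 cluster (145510759 to 147848366) of 18 Zfp genes, 7 of them members, in which Zfp982 and Zfp992 were called lower too. These 2 neighbours were named after their values were seen, and the call of Zfp992 was lost when any 1 library was left out. The median shared share of 50-base words in that cluster was 27.1%, so the counts of these copies are uncertain.

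**Figure D1:**
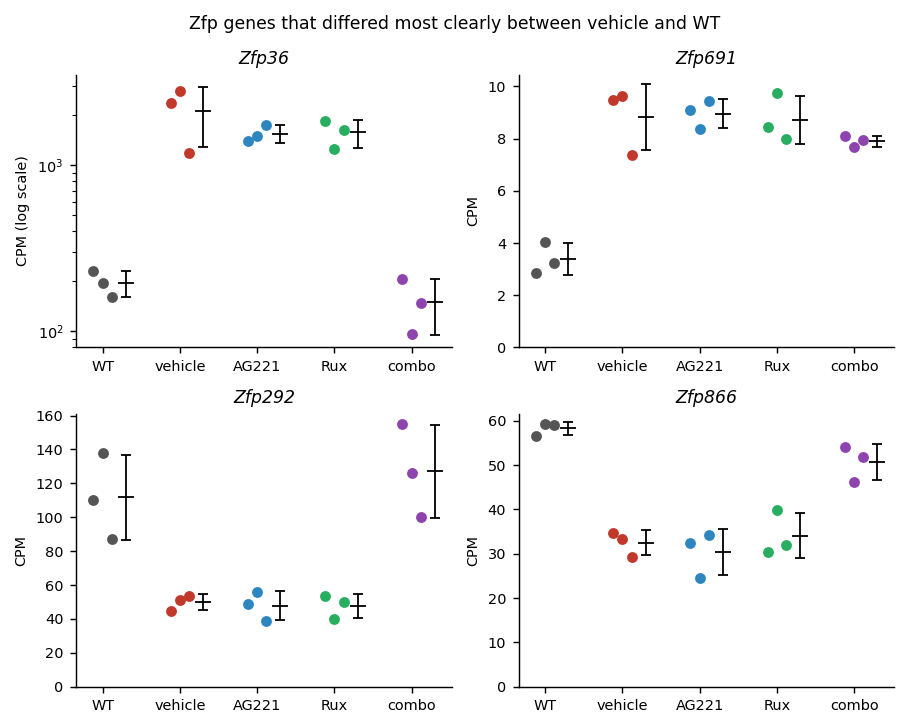
CPM of Zfp36 (log axis), Zfp691, Zfp292 and Zfp866 (linear axes) in each of the 15 libraries, by group, with the group mean and SD of 3 libraries. Zfp36 sat at 96.0 to 229 CPM in the WT and combo libraries and at 1185 to 2808 CPM in the other 9, Zfp292 was lowest in the same 9, and Zfp691 stayed high in all 12 mutant libraries.

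The number of calls depended on single libraries. It was 16 without WT B30, 23 without vehicle A4, 27 without vehicle A1 and 29 without WT B28. Offsets for GC content turned the split from 14 higher and 40 lower to 32 higher and 27 lower, and upper quartile scaling to 4 and 46. With the GC offsets the medians were 0.07 for the members and 0.10 for all genes. No sign of a named call was reversed: Zfp36, Zfp691, Zfp330, Zfp292, Zfp866, Zfp831, Zfp664 and Zfp985 stayed called in every alternative.

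**Figure D2:**
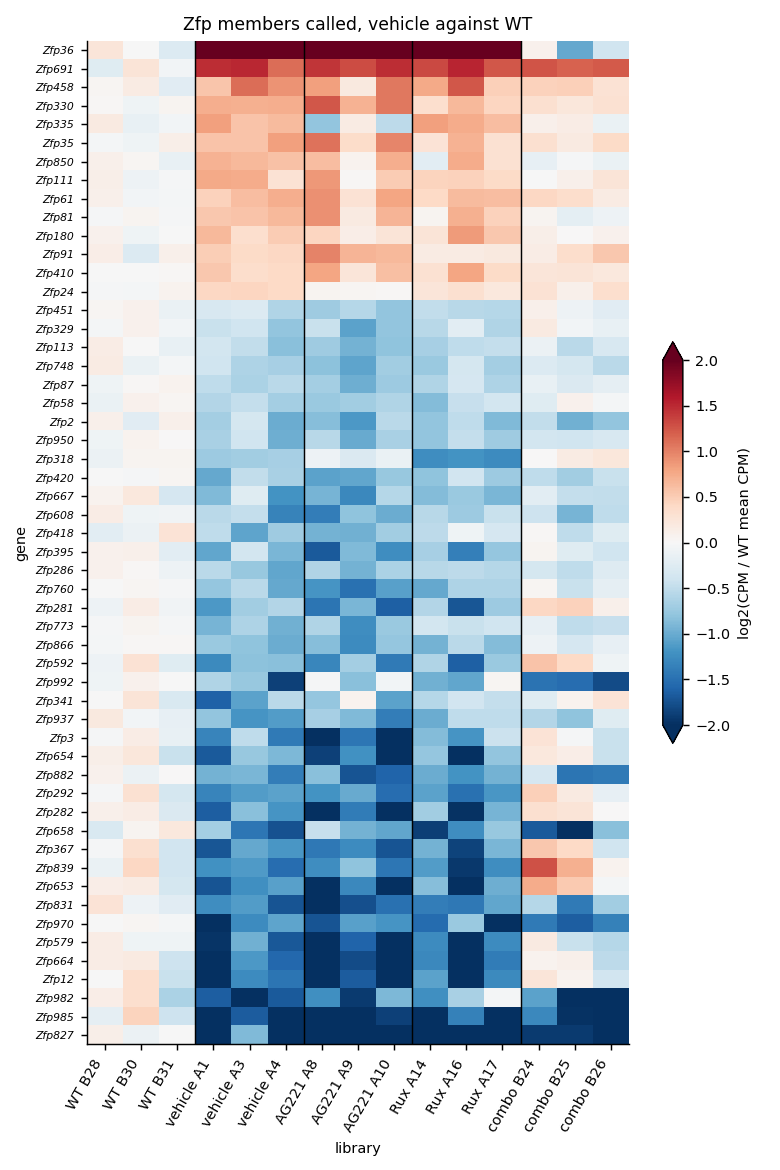
log2 of the CPM over the WT mean for the 54 members called in vehicle against WT (rows) in the 15 libraries (columns, by group), with colours capped at 2 above and below 0. The 14 members higher and 40 lower in vehicle form opposite blocks. Zfp36 is one of the members in which the combo libraries lie near the WT libraries.

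AG221 alone was compared with vehicle to ask what inhibition of mutant IDH2 did to these genes. Most members had a log2 fold change below 0, and few passed the test. The median log2 fold change of the members was -0.21 against -0.01 over all genes, with 221 members below 0 and 72 above. edgeR called 5 members, all lower, where 0.516% of all genes and 0.675% of genes with the same minimum were called lower. None of the 5 had a KRAB box. All 7 neutrophil and monocyte markers were detected in both groups, and their sum was 4680 to 5650 CPM in AG221 against 1510 to 3620 CPM in vehicle; the megakaryocyte sum was 287 to 518 against 727 to 781 CPM, and the immediate early sum 1830 to 3390 against 4440 to 10200 CPM. None of these markers was called by edgeR, though 4 of 7, 1 of 3 and 8 of 8 had an unadjusted p under 0.05, and their part in the result was not tested.

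Zfp397, a SCAN-box gene, stood at 88.7, 104.8 and 96.0 CPM in vehicle and at 39.5, 58.5 and 43.5 CPM in AG221. The groups were apart, the log2 fold change was -1.03 (SE 0.14) and the adjusted p 0.0458 by edgeR. Zfp335, a subunit of histone methyltransferase complexes, fell from 60.3 ± 5.77 to 30.2 ± 10.8 CPM, Zfp275 from 31.96 ± 5.97 to 15.4 ± 4.91 CPM and Zfp629 from 50.6 ± 10.3 to 25.04 ± 6.39 CPM. Zfp507 fell from 44.2 ± 5.55 to 25.8 ± 2.77 CPM; 28.3% of its exon bases and as many of those of Zfp335 overlap a gene on the other strand, and without a stated strand setting their reads cannot be told apart. AG221 A9 lay above A8 and A10 for each of these 5 genes.

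These calls did not stand without single libraries. 72 members were called without AG221 A9 (7 higher, 65 lower), 1 without vehicle A3, and 0 without vehicle A1, vehicle A4, AG221 A8 or AG221 A10. With A8 and A10 both left out, which leaves 1 AG221 library that is assumed to vary like the other groups, the count was 0, and the median over the members was -0.34 against 0.00 over all genes. DESeq2 called 38 members, 3 higher and 35 lower, and GC offsets gave 1 higher and 8 lower.

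Ruxolitinib alone was compared with vehicle to ask the same of JAK inhibition. No member was called by edgeR or by DESeq2, where 0.0168% of all genes were called in either direction by edgeR, and 7 members had an unadjusted p under 0.05 by edgeR. The median log2 fold change was -0.01 for the members and 0.01 for all genes. Zfp36 stayed at 1849, 1247 and 1625 CPM in Rux and at 1389, 1506 and 1753 CPM in AG221. Both groups overlapped vehicle, with log2 fold changes of -0.43 (adjusted p 1, edgeR) and -0.45 (adjusted p 0.362, edgeR). At 3 libraries each, a simulated 2-fold change in combo against vehicle was called for 6 of 100 genes and a 4-fold change for 88 of 100. How small a change could be called in Rux against vehicle was not tested, so a change there may have been missed.

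**Figure D3:**
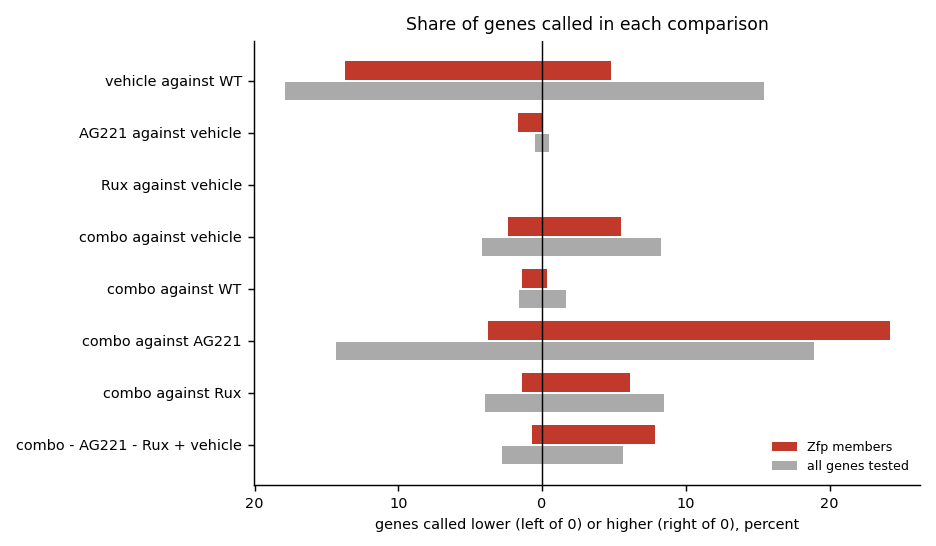
Percent of the 293 members and of all 17834 genes tested that were called higher or lower by edgeR (adjusted p under 0.05) in each of the 8 comparisons, with higher to the right of 0 and lower to the left. Of the members 24.2% were called higher in combo against AG221, against 18.9% of all genes. Among genes with the same minimum of 10 counts, which are not plotted, this share was 22.6%. In Rux against vehicle 0% of the members were called.

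Both inhibitors together were compared with vehicle to ask whether the mutant state was altered. Zfp36 fell 14.1-fold, while Zfp292, Zfp839, Zfp367, Zfp746 and Zfp318 rose. The vehicle libraries also entered the comparison with WT, so the values of a gene in both are not independent. edgeR called 23 members, 16 higher and 7 lower, where 8.28% of all genes were called higher and 4.21% lower. Among genes with the same minimum the shares were 10% and 5.03%, against 5.46% and 2.39% of the members. The groups did not overlap for 41% of the members and 34.7% of all genes, and the median log2 fold change was 0.02 for the members and 0.04 for all genes.

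Zfp36 stood at 206.5, 96.0 and 148 CPM in combo, where vehicle had been at 1185 to 2808. The log2 fold change was -3.82 (SE 0.34), an adjusted p of 3.69e-05 by edgeR. The immediate early sum was 483 to 958 CPM in combo, against 531 to 776 CPM in WT; 5 of its 8 genes were called lower than in vehicle, and its part in the fall of Zfp36 was not tested. The mast cell and basophil sum, at 347 to 788 CPM in vehicle and 193 to 309 CPM in combo with 1 of 3 genes called lower, moved as well, and its part was not tested either. Zfp407 was lower, from 64.8 ± 15.8 to 40.8 ± 0.678 CPM, as were Zfp142 from 49.6 ± 2.72 to 34.8 ± 1.41 CPM, Zfp146 from 52.0 ± 3.34 to 34.8 ± 2.91 CPM and Zfp81, a KRAB gene, from 41.8 ± 1.46 to 26.3 ± 2.38 CPM. Only the call of Zfp36 among these 5 held in every alternative: those of Zfp142 and Zfp81 were lost without any 1 of the 6 libraries compared, Zfp146 without each except combo B26, and Zfp407 without vehicle A1, combo B24, combo B25 or combo B26.

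Among the members that rose, Zfp292 stood at 155, 126 and 100 CPM in combo against 44.7, 51.4 and 53.5 CPM in vehicle. Its log2 fold change was 1.35 (SE 0.21, adjusted p 0.0023, edgeR), and no combo library was as low as any vehicle library. Zfp839 stood at 30.2, 20.3 and 13.0 CPM in combo and at 5.38, 5.68 and 4.34 CPM in vehicle, a 4.11-fold rise. Zfp367 rose from 31.7 ± 7.49 to 90.2 ± 28 CPM. Zfp746, known as PARIS, a repressor that parkin marks for degradation, rose from 5.74 ± 0.317 to 20.02 ± 4.75 CPM. Zfp318, needed for IgD in B cells through mRNA processing, rose from 3.93 ± 0.0954 to 6.97 ± 0.54 CPM, a log2 fold change of 0.83. Within each of these 5 the call was kept without any 1 of the libraries. The count of members called was 6 without vehicle A1, 7 without combo B24 and 10 without combo B25. GC offsets gave 17 higher and 13 lower.

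Combo was also compared with WT, the 2 groups whose library names both begin with B. edgeR called 5 members, 1 higher and 4 lower, where 1.63% of all genes were called higher and 1.61% lower. Among genes with the same minimum these shares were 2.08% and 0.927%, against 0.341% and 1.37% of the members. Zfp691 stayed high, at 8.09, 7.67 and 7.96 CPM in combo against 2.87 to 4.04 CPM in WT. Its log2 fold change was 1.22 (SE 0.19, adjusted p 0.00612, edgeR), and it was the only call of the 5 that held in every alternative. Zfp985, Zfp992, Zfp275 and Zfp970 were lower in combo, and Zfp992 and Zfp970 share 43% and 49.7% of their 50-base words with other genes. Zfp275 lies on chromosome X, and Xist also differed between WT and combo, so sex and genotype cannot be told apart for it. Without combo B25, WT B28, WT B30 or WT B31 1 member was called, without combo B26 2, and without combo B24 3, and with GC offsets 1 was higher and 1 lower. Zfp36 and Zfp292 gave log2 fold changes of -0.38 (adjusted p 0.46) and 0.19 (adjusted p 0.598) by edgeR, and the WT and combo ranges of Zfp292 overlapped.

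Against AG221, combo had more members called than in any other comparison made here. edgeR called 82, 71 higher and 11 lower, where 18.9% of all genes were called higher and 14.3% lower. Among genes with the same minimum these shares were 22.6% and 18.2%, against 24.2% and 3.75% of the members. In either direction 28% of the members were called, against 33.2% of all genes and 40.8% of genes with the same minimum. The groups did not overlap for 41.6% of the members and 44.6% of all genes. The median log2 fold change was 0.25 for the members and 0.11 for all genes. Zfp36 was lower (-3.37, SE 0.33, adjusted p 0.000125) and Zfp397 higher (0.996, SE 0.14, adjusted p 0.00159) by edgeR's quasi-likelihood test, and Zfp330 was lower by 0.73. The neutrophil and monocyte sum was 4680 to 5650 CPM in AG221 and 1230 to 1640 CPM in combo (5 of 7 markers called lower), the immediate early sum 1830 to 3390 and 483 to 958 CPM (4 of 8 lower), and the plasma cell sum 33.9 to 113 and 154 to 206 CPM (2 of 4 higher); their part in the Zfp calls was not tested. Leaving out AG221 A8 and A10, which leaves 1 AG221 library, left 1 call, that of Zfp36, with a median of 0.36 for the members and 0.03 for all genes. Without AG221 A9 128 members were called, without A8 42, without A10 47, and without combo B24 51. Upper quartile scaling changed the split to 49 higher and 35 lower, with medians of -0.06 for the members and -0.18 for all genes.

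Against Rux, combo had 22 members called, 18 higher and 4 lower, where 8.5% of all genes were called higher and 3.94% lower. Among genes with the same minimum these shares were 10.8% and 4.82%, against 6.14% and 1.37% of the members. Zfp318 stood at 6.37, 7.15 and 7.40 CPM in combo and at 2.69, 2.78 and 2.65 CPM in Rux, a log2 fold change of 1.37 (SE 0.17, adjusted p 0.000692). Zfp36, Zfp292 and Zfp407 were called too, the last lower at 40.8 ± 0.678 against 73.8 ± 2.06 CPM. Every alternative was examined only for these and Zfp318, and all of their calls were kept. Zfp839, Zfp746, Zfp598, Zfp704, Zfp367, Zfp281 and Zfp664 also stayed called when any 1 library was left out. The count was 11 without combo B24, 12 without combo B25 or Rux A17 and 13 without Rux A16, and GC offsets gave 16 higher and 8 lower. The neutrophil and monocyte sum was 2990 to 5230 CPM in Rux and 1230 to 1640 CPM in combo (1 of 7 markers called lower), and the immediate early sum 2350 to 6530 and 483 to 958 CPM (4 of 8 lower); their part was not tested. All these comparisons with combo share its 3 libraries.

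A departure of combo from the sum of the single inhibitors was tested as combo minus AG221 minus Rux plus vehicle. Only combo among these groups has library names that begin with B, so a departure cannot be told apart from the letter. edgeR called 25 members, 23 above and 2 below 0, where 5.6% of all genes were called above and 2.82% below. Among genes with the same minimum these shares were 7.05% and 3.56%, against 7.85% and 0.683% of the members. The median was 0.26 for the members and 0.07 for all genes. Zfp36 departed by -2.94 on the log2 scale (SE 0.44, adjusted p 0.00798) and Zfp397 by 1.31 (SE 0.20, adjusted p 0.00948), and both kept their call when any 1 of the 12 libraries was left out. Zfp397 is a case in which AG221 alone was low (47.2 ± 10 CPM) and combo (94.0 ± 5.59 CPM) close to vehicle (96.5 ± 8.07 CPM). Over all alternatives Zfp36 lay between -2.65 and -3.24. With A8 and A10 left out, which leaves 1 AG221 library, no member was called by edgeR and the median was 0.36 for the members and 0.01 for all genes. The count was 87 without A9, 2 without vehicle A3, vehicle A4, AG221 A8, AG221 A10, Rux A17, combo B24 or combo B25, 3 without Rux A16 and 16 without Rux A14. Upper quartile scaling gave 24 above and 8 below 0, with medians of -0.06 and -0.24.

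A smaller share of the KRAB genes than of the other members was called in several comparisons; no test of the difference between the classes was made. In combo against AG221, 23 of 170 KRAB genes (13.5%) and 48 of 123 genes without KRAB (39%) were called higher, where 18.9% of all genes were, with medians of 0.09 and 0.49. In AG221 against vehicle the medians were -0.16 and -0.37. The gap was not in every AG221 library: relative to the WT mean, the genes without KRAB had a median of -0.75 in A8 and -0.66 in A10 against -0.17 and -0.21 for the KRAB genes. In A9 the medians were -0.42 and -0.50, and the KRAB genes were then the lower ones. GC content moved with the class and with these libraries, and its part in the gap was not tested. In combo against vehicle 3 KRAB genes (1.76%) and 13 without KRAB (10.6%) were higher, where 8.28% of all genes were. In combo against Rux they were 3 and 15 (1.76% and 12.2%), where 8.5% of all genes were. In vehicle against WT 5 KRAB genes were higher (2.94%) and 19 lower (11.2%), against 9 (7.32%) and 21 (17.1%) without KRAB. Over all genes these shares were 15.4% higher and 17.9% lower.

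**Figure D4:**
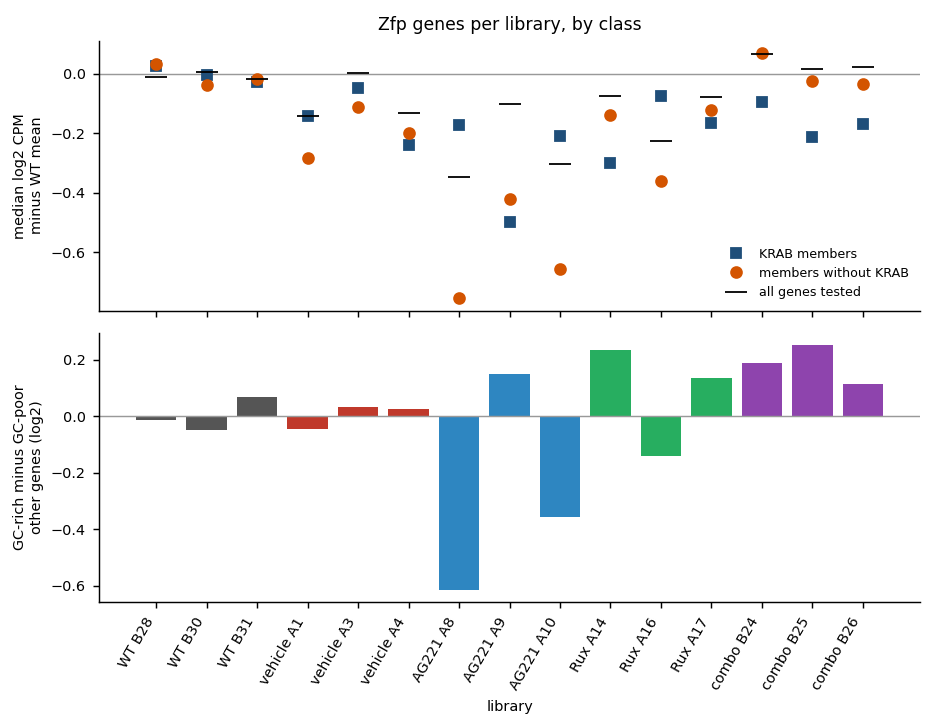
Median log2 of the CPM over the WT mean per library, for the 170 KRAB genes, the 123 genes without KRAB and all genes tested, with bars below, coloured by group, for the 25% of the other genes richest in GC minus the 25% poorest (log2). AG221 A8 and A10 have the lowest medians without KRAB (-0.75 and -0.66) and the lowest GC difference (-0.61 and -0.36).

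By role, 9 members are known to act on RNA or ribosomes. Zfp622, a factor in maturation of the large ribosomal subunit, stood at 6.02, 16.1 and 17.9 CPM in vehicle and 67.6, 70.5 and 26.9 CPM in combo. It was called higher (log2 fold change 2.04, SE 0.57, adjusted p 0.0311), but not without vehicle A1, vehicle A3, combo B24 or combo B25. In vehicle against WT Zfp36 was the 1 call of the 9, and in AG221 against vehicle none was called by edgeR (3 at an unadjusted p under 0.05). Zfp346, which binds double-stranded RNA, and Zfp326, a splicing factor, were called higher in combo against AG221 with log2 fold changes of 0.50 and 1.23. Both calls were lost without AG221 A8, AG221 A10, combo B24 or combo B25, and that of Zfp326 also without combo B26.

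Of 5 promoter factors, Zfp281, a repressor known from pluripotent cells, stood at 47.5, 56.9 and 48.8 CPM in WT, 23.01, 31.4 and 33.9 CPM in vehicle and 68.0, 70.4 and 54.8 CPM in combo. It was lower in vehicle than in WT (-0.80, SE 0.27, adjusted p 0.0386) and higher in combo than in vehicle (1.13, SE 0.27, adjusted p 0.0159) by edgeR, with no overlap between either pair of groups. Its call against WT was lost without any 1 of the 6 libraries, and its call in combo without vehicle A1, combo B24 or combo B25. Zfp384, a factor fused to other genes in acute leukaemia, was called higher in combo against AG221 (1.97, SE 0.50), with an AG221 level of 16.7 ± 13 CPM, a call lost without AG221 A8.

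Of 8 chromatin cofactors, Zfp592, a partner of the Zmynd8 and Zfp687 complex, fell from 63.7 ± 12.4 CPM in WT to 32.7 ± 5.58 in vehicle and stood at 79.6 ± 17.8 in combo. Its log2 fold changes were -0.96 in vehicle against WT (lost without vehicle A1 or WT B30) and 1.28 in combo against vehicle (lost without vehicle A1 or combo B24). Zfp451, a SUMO ligase, was at 103 ± 7.96, 78.6 ± 9.42 and 98.3 ± 11.4 CPM in the same groups, and fell in vehicle by 0.39 on the log2 scale, a call lost without vehicle A1, vehicle A4, WT B28 or WT B30. Zfp335 was higher in vehicle than in WT (0.68, SE 0.21, adjusted p 0.0263), a call lost without vehicle A1, vehicle A4, WT B30 or WT B31. Zfp644, a G9a cofactor, and Zfp219 were called in combo against AG221 with log2 fold changes of 0.50 and 2.27; that of Zfp219 was lost without any 1 library except AG221 A9, and both without A8 and A10 together.

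The members with a known part in silencing of retroelements or imprints (Zfp809, Zfp932, Zfp568, Zfp57, Zfp445 and Zfp738) gave no call. edgeR called none of the 6 in any of the 8 comparisons, in which the share of all genes called in either direction ran from 0.0168% to 33.3%. At an unadjusted p under 0.05, 2 passed in combo against vehicle and 1 each in combo against AG221 and combo against Rux, and DESeq2 called 1 in each of these 3. Zfp445, which guards imprints together with Zfp57, stood at 87.7 ± 3.62 CPM in WT, 107 ± 17.7 in vehicle and 68.7 ± 1.69 in combo. Zfp809, which silences retroviral elements in embryonic cells, stood at 27.3 ± 1.52, 24.8 ± 1.19 and 24.7 ± 1.01 CPM.

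Of the 3 members known from blood cells, Zfp608 and Zfp318 were lower in vehicle than in WT, and Zfp521, a cofactor in early haematopoietic progenitors, was not called (log2 fold change -0.58, SE 0.25, adjusted p 0.0817, edgeR). Zfp608 fell from 74.97 ± 7.21 to 45.1 ± 13.3 CPM, a call lost without vehicle A4, WT B28 or WT B30. Zfp318 fell from 6.35 ± 0.411 to 3.93 ± 0.0954 CPM, by 0.69 on the log2 scale. In bulk RNA, fewer cells with a transcript and less of it per cell cannot be told apart.

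The machinery that KRAB boxes recruit was measured beside these genes through 23 corepressor and heterochromatin genes. In vehicle against WT 8 were called higher and 4 lower, where 15.4% and 17.9% of all genes were, and in combo against vehicle 5 higher and 2 lower, where 8.28% and 4.21% were. The 4 genes given next were chosen from the list after their values were seen. Of these only Setdb1 was higher in vehicle than in WT and lower in combo than in vehicle. The median log2 fold changes of the whole list were 0.10 and -0.07 in these comparisons. Trim28 fell from 81.2 ± 8.79 CPM in WT to 45.01 ± 9.08 in vehicle (log2 fold change -0.85, adjusted p 0.0141) and stood at 161 ± 25.6 CPM in combo (1.84 against vehicle, adjusted p 0.00071). Setdb1 went the other way, at 122 ± 11.3, 192 ± 19.1 and 128 ± 7.17 CPM in WT, vehicle and combo, with log2 fold changes of 0.66 (adjusted p 0.0139) and -0.59 (adjusted p 0.0384). Fam208a, the Tasor subunit of the HUSH complex, gave -1.597 (adjusted p 0.000301) and 1.45 (adjusted p 0.00115) in these comparisons. Chaf1a, a histone chaperone, was called higher in combo against vehicle (2.19, adjusted p 0.00521), where its vehicle against WT value was -1.09 (adjusted p 0.0541). All are adjusted p-values of edgeR's quasi-likelihood test.

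In a cluster on chromosome 6, most members were called higher in combo than in AG221. The 9 Zfp genes at chromosome 6, 47819266 to 48623227, include 8 members (Zfp786, Zfp398, Zfp282, Zfp212, Zfp956, Zfp777, Zfp746 and Zfp775), of which 5 have a KRAB box; the cluster was chosen after its values were seen. In combo against AG221, 6 of the 8 were called higher, where 18.9% of all genes were, with a median of 1.34. Of 15 alternatives, the call was lost in 12 for Zfp398, 9 for Zfp777, 6 for Zfp746 and 5 for Zfp786. The calls of Zfp282 and Zfp775 were each lost in 1. Zfp212 (log2 fold change 0.46, adjusted p 0.063) and Zfp956 (-0.08, adjusted p 0.743) were not called by edgeR. In combo against vehicle 2 were called higher (Zfp282 and Zfp746), where the call of Zfp282 was lost without vehicle A1, vehicle A4, combo B24 or combo B25. Zfp775 stood at 0.727, 3.61 and 0.837 CPM in AG221 and at 15.9, 11.96 and 11.7 CPM in combo, and Zfp282 at 6.37, 16.2 and 6.37 CPM and 53.4, 51.3 and 43.1 CPM. AG221 A9 lay nearer to vehicle than A8 and A10 in both. Leaving out A8 and A10 leaves 1 AG221 library. Over all alternatives, including those without A8 and A10, the log2 fold change against AG221 was 1.587 to 2.955 for Zfp282. It was 1.847 to 4.068 for Zfp775, while that of Zfp398 fell as low as 0.107. The exons of the 8 members share little, with a median of 0.497% of 50-base words found elsewhere.

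**Figure D5:**
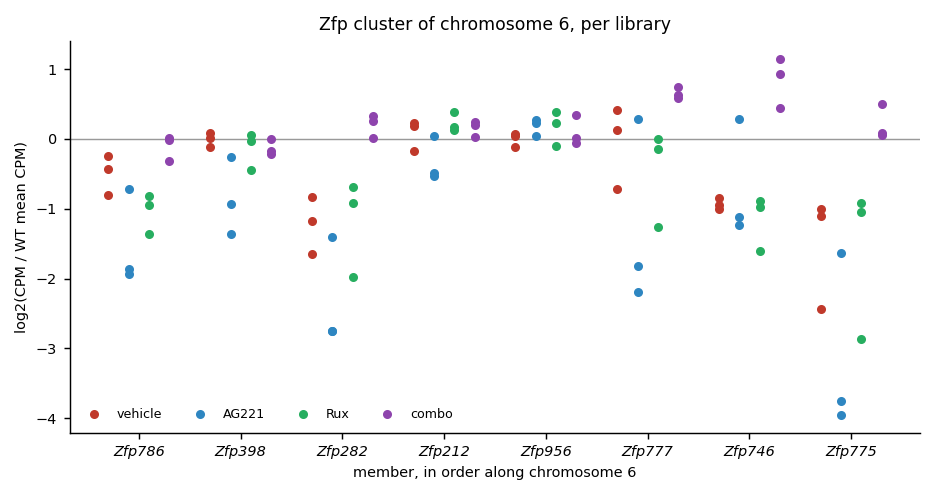
log2 of the CPM over the WT mean for the 8 members of the chromosome 6 cluster in the 12 mutant libraries, coloured by group, with the genes in their order along the chromosome and 0 at the WT mean. AG221 A8 and A10 are the lowest points for Zfp282 (6.37 CPM in both) and Zfp775 (0.727 and 0.837 CPM).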

How the data were processed

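RNA of sorted LSK cells was amplified with the SMARTer chemistry and sequenced as paired reads in 15 libraries, 5 groups of 3 by the labels. The authors aligned the reads with STAR 2.5.1a to mm10 (GRCm38) and used its gene counting, and DESeq2 1.6.3 for their own tests; the deposited table holds raw counts per Ensembl gene, and the annotation release and strand setting are not given in the sources used here. Here gene symbols, exons and coding sequences came from GENCODE M21 (44585 of 45232 IDs matched), and promoters from RefSeq. Counts were fitted with edgeR 4.0.16 (limma 3.58.1, R 4.3.3) by quasi-likelihood, TMM scaling and filterByExpr, with all 15 libraries and 5 groups in one fit and no covariate, and p-values were adjusted by Benjamini-Hochberg over 17834 genes, with calls at 0.05. CPM used TMM library sizes, log2 CPM a prior count of 2, and the SE of a log2 fold change was derived from the F statistic. Since neither source says that libraries are separate mice, p-values measure the spread between these libraries, which may be technical; within-group correlations of log2 CPM over the members ran from 0.872 to 0.987, and no library pair agreed within sampling noise. DESeq2 1.42.0, RLE, upper quartile, GC offsets, other filters and leaving out each library were the alternatives. A KRAB box was scored as at least 11 of 14 conserved positions and a SCAN box as at least 15 of 24; a C2H2 finger was a pattern with 12 residues between its second cysteine and first histidine. The fit was tested on simulated data with 17098 genes, all given the same spread. The genes named were, per comparison of vehicle with WT and of each treatment with vehicle, the 5 with the smallest adjusted p in each direction, the role lists, and the extremes in level and finger number; others are said to have been chosen later. The members and lists were chosen with earlier results of these data known. The list of 23 corepressors was described by counts, and the 4 of its genes given with values were chosen after these were seen. One marker gene is not reported here.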

Additional observations from a re-analysis of the deposited data

Results flagged for a closer look

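The test of departure called 25 members, 23 above and 2 below 0. The shares called above and below were 5.6% and 2.82% of all genes. They were 7.05% and 3.56% of genes with the same minimum, against 7.85% and 0.683% of the members. Of the 25 members, 12 are among the genes named by the rule. For these combo differed from the sum of the single effects, by the test of that difference in edgeR (combo minus AG221 minus Rux plus vehicle, log2 scale). Among these groups only combo has library names beginning with B. A joint effect of the inhibitors and the letter therefore cannot be told apart. The difference was -2.94 for Zfp36 and above 0 for the others: 1.77 for Zfp281, 2.27 for Zfp282, 1.48 for Zfp292, 0.85 for Zfp318, 1.61 for Zfp367, 1.31 for Zfp397, 0.78 for Zfp451, 1.38 for Zfp592, 2.81 for Zfp622, 2.25 for Zfp664 and 2.02 for Zfp839. The calls of Zfp36 and Zfp397 were kept in all 12 fits that left out 1 library. Those of the other 10 were lost in most of these fits: that of Zfp318 was kept in 1, that of Zfp281 in 5 and those of the other 8 in 4 each. Leaving out AG221 A8 and A10 both leaves 1 AG221 library. Over all alternatives, including those without A8 and A10, the difference was -3.235 to -2.646 for Zfp36 and 0.97 to 1.5 for Zfp397.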

How the results depend on the processing

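No sign of a named call was reversed under any alternative. Of 78 named calls, 19 stood in every alternative and 59 were lost in at least 1. DESeq2 called 38 members in AG221 against vehicle, 43 in combo against vehicle, 18 in combo against WT, 38 in combo against Rux and 50 for the departure from the sum. Using only the groups compared gave 0, 38, 27, 43 and 3 in AG221 against vehicle, combo against vehicle, combo against WT, combo against AG221 and the departure. GC offsets gave 9 in AG221 against vehicle and 2 in combo against WT. At least 10 counts in every library gave 14 in AG221 against vehicle, and members without the minimum gave 9 in combo against WT. Chosen after seeing the data, leaving out AG221 A8 and A10 gave 0, 1 and 0 in AG221 against vehicle, combo against AG221 and the departure. Leaving out these and also vehicle A1 and Rux A16 gave 0 in AG221 against vehicle, 50 in combo against vehicle, 35 in combo against AG221, 36 in combo against Rux and 5 for the departure. Leaving out 1 library at a time gave 16 to 48 calls in vehicle against WT, 0 to 72 in AG221 against vehicle, 0 in Rux against vehicle, 6 to 18 in combo against vehicle, 1 to 3 in combo against WT, 42 to 128 in combo against AG221, 11 to 18 in combo against Rux and 2 to 87 for the departure. Upper quartile scaling and GC offsets shifted the all-gene median, to 0.18 and 0.09 in AG221 against vehicle and -0.18 and -0.09 in combo against AG221; relative to it the members stood at -0.20 and -0.27 in the first and at 0.12 and 0.22 in the second. The cause of these shifts was not tested. No paired analysis was possible because the groups share no replicate numbers.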
